A study of Homo sapiens with 8 samples.

Results

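The 45 genes described here are needed for the G2 phase of the cell cycle, for the segregation of chromosomes in mitosis and for cell division. They were chosen by name and not by a threshold on these values, but with earlier results of these data known. All 45 were found once each among the 58735 genes of the count table, and all 45 were among the 17413 genes that passed the filter on low counts. Cells were SV-HUC1, a human urothelial (urinary tract lining) cell line of non-tumour origin that carries SV40 as its immortalising agent, grown in medium with 5% fetal bovine serum. There were 4 untreated control cultures and 4 cultures treated with glucose oxidase, an enzyme that releases hydrogen peroxide as it oxidises glucose, at 20 mU/ml, and treatment lasted 24 h. No culture received peroxide alone or inactive enzyme, and all 8 come from 1 cell line. Replicates are numbered 1 to 4 in each group, and the submitters describe independent experiments.

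Total counts ran from 21437267 to 27183692 per library, and the members took 0.747% to 1.42% of them. Of 16 urothelial and epithelial markers 14 passed the filter, and their sum was 6088 to 9341 CPM in controls and 4672 to 5459 CPM in treated libraries (CPM, a gene's counts relative to the library's total, scaled by the TMM method), without overlap. The sum of leukocyte markers was 7.91 to 10.01 CPM against 5.56 to 6.76 CPM, also without overlap, while fibroblast markers (17.1 to 26.8 against 15.8 to 27.01 CPM) and endothelial markers (3.42 to 5.35 against 3.07 to 6.05 CPM) overlapped. These 3 sums are low and rest on few genes. Only 3 of 8 leukocyte, 2 of 7 fibroblast and 2 of 6 endothelial markers passed the filter, so they do not measure such cells. The part of any of these in the members' results was not tested. Libraries of replicates 1 and 2 stood apart from those of replicates 3 and 4 in both groups, a division seen in the expression values and not in the labels. Mitochondrial transcripts made up 1.23% of counts for control 1, and between 2.21% and 3.28% elsewhere.

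Entry into mitosis is driven by CDK1 bound to cyclins A and B. The spindle assembly checkpoint then holds cells before anaphase until every kinetochore is attached to microtubules, after which the anaphase-promoting complex destroys cyclin B and securin and the chromosomes separate. Most genes of this programme are transcribed together in G2 by B-MYB and FOXM1 with the MuvB complex, and are repressed in resting cells by the DREAM complex. SV40 large T antigen is known to bind the retinoblastoma protein family and p53, which act upstream of this programme. In a bulk culture, fewer cells in G2 and mitosis and less RNA per dividing cell cannot be told apart.

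MuvB binds a promoter element known as CHR, with the core TTTGAA, often close to CCAAT boxes that NF-Y binds. In RefSeq promoter windows (GRCh38.p14, 250 bases before to 50 after a gene's start, both strands searched), 28 of the 38 members with a window held TTTGAA (73.7%) and 31 held CCAAT (81.6%). Of all 27305 genes with a window, 18.2% held TTTGAA and 39.7% held CCAAT. Both stood in 63.2% of members and 7.26% of all genes. Among 79 other genes of mitosis with a window, 40 (50.6%) held TTTGAA and 51 (64.6%) held CCAAT. Among 30 genes of the MCM helicase and the replication origin, 1 (3.33%) held TTTGAA and 20 (66.7%) held CCAAT. No window was found for FOXM1, AURKA, TTK, BUB3, BIRC5, TPX2 and UBE2C. Of the members that fell, PTTG1 has a window without TTTGAA. The median log2 change given further on for the members was -0.24 among the 28 with TTTGAA and -0.21 among the 10 without. A match to so short a word is a description and not a mapped binding site. The sites below are 30 bases on the gene's strand, 5′ to 3′, with 1 core in capitals. They are shown because they let members that fell, rose or did not pass be compared at 1 match to the core each. CDK1 and DLGAP5 held further matches that are not shown. For CDK1 the match shown is at -69 from a RefSeq start. Others were at -161, -13 and 10, each counted from the RefSeq start of its own window. Which match acts as the element was not tested. Each name is followed by the position in GRCh38.p14.
CDK1, fell (chr10:60778397-60778426, plus strand): ctgattggctgcTTTGAAagtctacgggct
NUF2, fell (chr1:163321958-163321987, plus strand): ggaggcggcaagTTTGAAaagtgatgacgg
SPC25, fell (chr2:168890416-168890445, minus strand): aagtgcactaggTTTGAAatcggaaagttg
DLGAP5, fell (chr14:55191565-55191594, minus strand): cggtgcggcaagTTTGAAtttcgtggaggc
MKI67, rose (chr10:128126453-128126482, minus strand): ttagcgccagaaTTTGAAtcttcgttttcg
CCNB2, did not pass (chr15:59105105-59105134, plus strand): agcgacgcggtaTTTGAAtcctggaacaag
PLK1, did not pass (chr16:23678848-23678877, plus strand): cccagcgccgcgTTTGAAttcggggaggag
BUB1B, did not pass (chr15:40161034-40161063, plus strand): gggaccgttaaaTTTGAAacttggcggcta
KIF4A, did not pass (chrX:70290058-70290087, plus strand): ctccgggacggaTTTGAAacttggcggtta
HMMR, did not pass (chr5:163460592-163460621, plus strand): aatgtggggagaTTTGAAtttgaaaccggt

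For MKI67 and CKS2, the 150 bases upstream of the RefSeq start hold no annotated exon and show the arrangement of the elements, with TTTGAA and CCAAT on either strand in capitals. In MKI67 the second TTTGAA shares its last base with a CCAAT box on the other strand.
MKI67 (chr10:128126424-128126573, minus strand): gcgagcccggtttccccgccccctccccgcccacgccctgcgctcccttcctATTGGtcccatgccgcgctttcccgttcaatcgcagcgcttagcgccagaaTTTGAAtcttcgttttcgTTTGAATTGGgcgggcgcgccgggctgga
CKS2 (chr9:89311045-89311194, plus strand): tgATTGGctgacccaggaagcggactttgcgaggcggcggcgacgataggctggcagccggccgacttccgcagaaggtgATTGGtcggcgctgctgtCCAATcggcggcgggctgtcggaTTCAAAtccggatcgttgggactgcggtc

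After glucose oxidase, 7 of the 45 members fell and 1 rose when the replicate number was in the fit. PTTG1, SPC25, TTK, DLGAP5, CDK1, BIRC5 and NUF2 fell, by 0.44 to 0.62 on the log2 scale, and MKI67 rose by 0.51. Over all tested genes 6.97% fell and 7.51% rose in this fit, against 15.6% and 2.22% of members. The members' median log2 change was -0.24, with 37 below zero (82.2%), and that of all tested genes was -0.01, with 50.7% below zero. The test was edgeR's quasi-likelihood test over all 17413 genes, with Benjamini-Hochberg adjusted p below 0.05, and "rose" and "fell" are said only of genes past it. Without the replicate number in the fit, edgeR called 0 members and 0 of all genes, with member adjusted p from 0.658 to 0.982, and 1 member (BIRC5) had an unadjusted p below 0.05, against 7.37% of all genes. DESeq2 without the replicate number also called 0 members. With it, DESeq2 called 10 lower, against 8.69% of all genes, adding ANLN, HMMR and MAD2L1 to the 7. Without replicate 3 no member passed in edgeR. Of the 7, DLGAP5, PTTG1, SPC25 and TTK still fell without replicate 1, BIRC5, PTTG1 and SPC25 without replicate 2, and PTTG1 and SPC25 without replicate 4. CDK1 and NUF2 passed in none of these fits. Shares of all genes in these smaller fits are not given here, so a loss of calls particular to the members cannot be told.

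**Figure D1:**
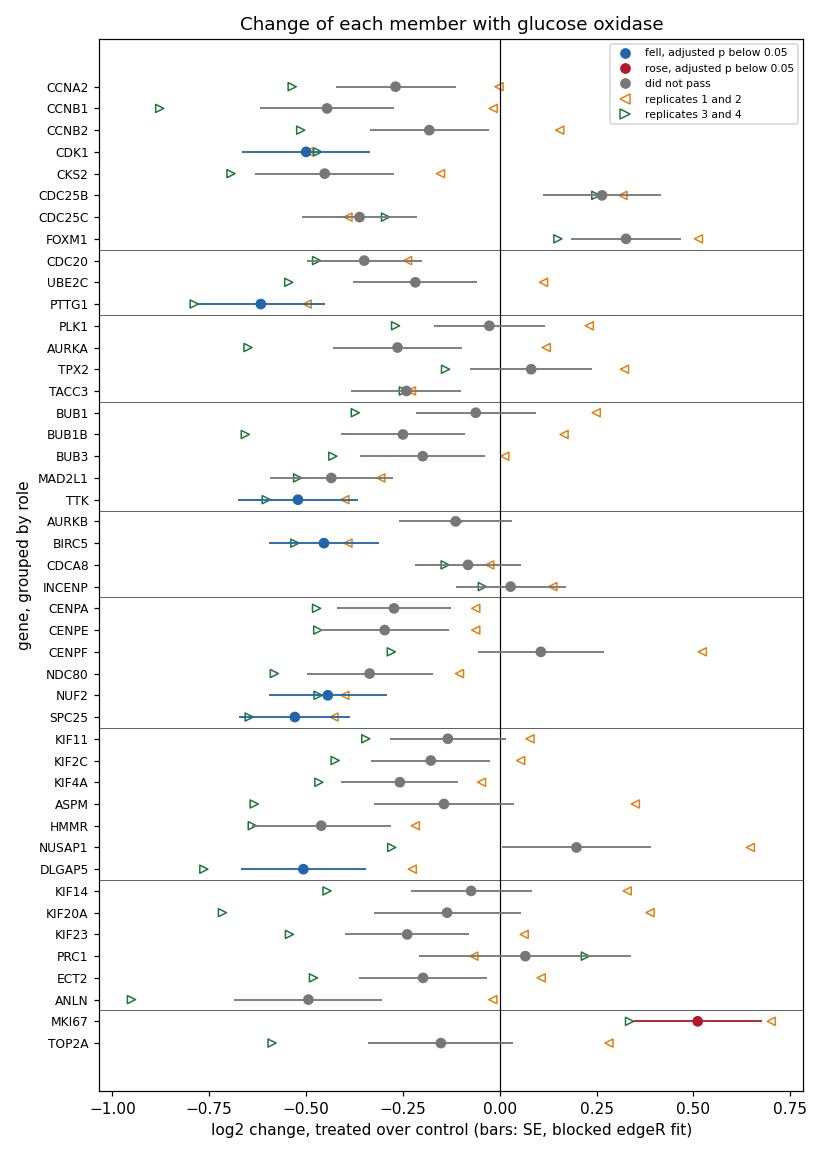
Log2 change of each of the 45 members, treated over control (x axis), by role (y axis); filled points and bars are the edgeR estimate and its SE with the replicate number in the fit, and open triangles are the changes within replicates 1 and 2 and within replicates 3 and 4. The 7 members that fell are spread over 6 role groups, MKI67 is the 1 that rose, and most right-pointing triangles (replicates 3 and 4) lie left of zero.

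The cyclin-CDK engine held 8 members, of which 1 fell (12.5%, against 6.97% of all tested genes). CDK1 (ENSG00000170312, chromosome 10, 60778331 to 60794852, GRCh38), the kinase that starts mitosis, was at 564.5, 481.4, 951.2 and 712.3 CPM in untreated cultures 1 to 4 and at 473.7, 269.5, 609.7 and 591.2 CPM in treated 1 to 4. Each treated library lay below the control of its number, while the groups overlapped. The change was -0.50 on the log2 scale (SE 0.17, edgeR adjusted p = 0.0414), with -0.49 from replicates 1 and 2 alone and -0.47 from the other pairs. Pair by pair it was -0.25, -0.84, -0.64 and -0.27. CDK1 did not pass with any 1 replicate number left out (edgeR adjusted p from 0.0614 to 0.227). Nor did it pass with total counts (0.0925) or without the filter on low counts (0.0536). Its partners did not pass: cyclin B1 (CCNB1) had a log2 change of -0.45 (edgeR adjusted p = 0.0829), cyclin A2 (CCNA2) -0.27, cyclin B2 (CCNB2) -0.18 and CKS2, a small CDK-binding subunit, -0.45. CDC25C, a phosphatase that activates CDK1, had a log2 change of -0.36, and CDC25B, of the same family, 0.26. FOXM1, a transcription factor of the G2 programme, was at 31.5 ± 8.29 CPM without and 40.5 ± 16.7 CPM with glucose oxidase (SD, n = 4, log2 change 0.33, edgeR adjusted p = 0.125). CDC25B and FOXM1 were thus above zero where the other 6 were below it, and neither passed.

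PTTG1, securin, which holds separase inactive until anaphase, had the most negative estimate among the members with the replicate number in the fit. Without it ANLN was lower (-0.76 against -0.71 on the log2 scale), as it was with the correction for length (-0.55 against -0.50), where TTK was too (-0.54). PTTG1 (ENSG00000164611, chromosome 5, 160421822 to 160428744) stood at 366.5, 200.7, 1082 and 761.4 CPM in untreated cultures 1 to 4 and at 243.8, 158.0, 509.4 and 557.1 CPM in treated 1 to 4. It was lower in all 4 pairs, with replicates 3 and 4 above replicates 1 and 2 in either group. The log2 change was -0.62 (SE 0.17, edgeR adjusted p = 0.0131). PTTG1 has near-identical copies elsewhere in the genome, and PTTG2 had at most 4 counts and PTTG3P 0 in any library, so few reads were assigned to them. CDC20, the activator of the anaphase-promoting complex, had -0.35 on the log2 scale (edgeR adjusted p = 0.116), and UBE2C, its ubiquitin-conjugating enzyme, had -0.22 (adjusted p = 0.395), so neither passed.

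**Figure D2:**
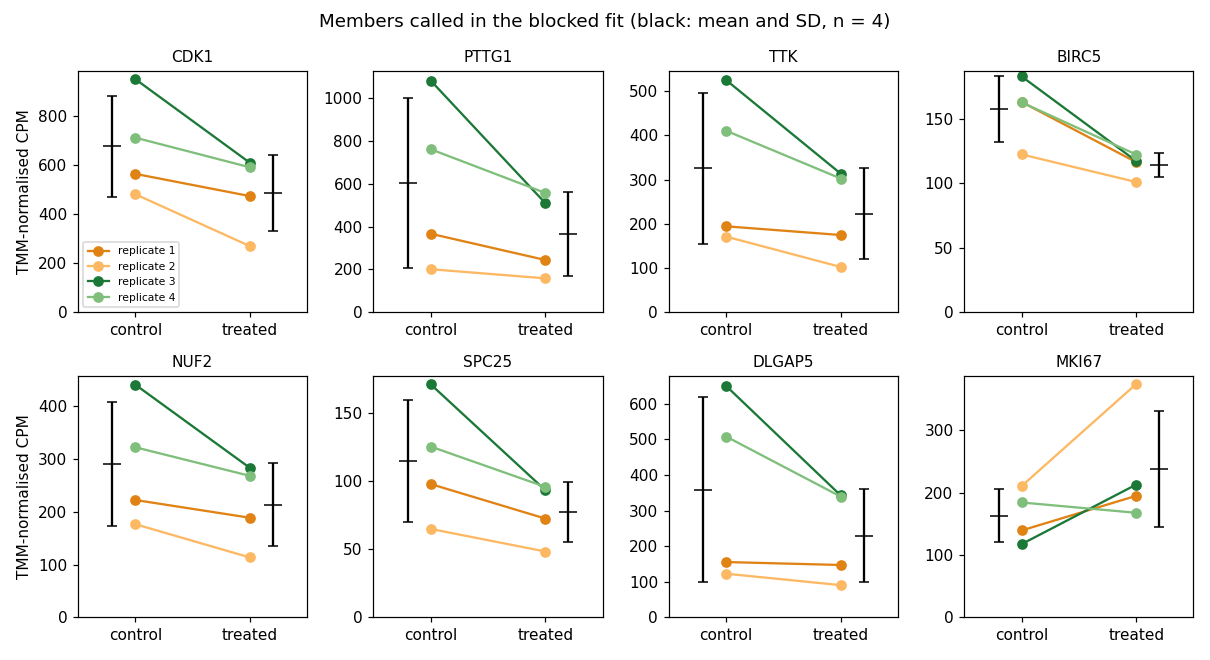
TMM-normalised CPM (y axis, from 0) of the 8 members that passed, in controls and treated cultures (x axis), with a line joining libraries of the same replicate number and black bars for mean and SD (n = 4). All 4 lines fall for each of the 7 decreased genes, and for MKI67 3 lines rise and that of replicate 4 goes from 184.1 to 167.6 CPM. The genes were selected by the fit with the replicate number, which favours lines that go together, so this is no separate support.

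In the spindle assembly checkpoint all 5 members had a change below zero, as had 50.7% of all tested genes. Of the 5, 1 fell (20%, against 6.97% of all tested genes). TTK (ENSG00000112742, chromosome 6, 80003887 to 80042527), the kinase MPS1 that starts the checkpoint signal, was at 194.2, 170.9, 525.0 and 410.4 CPM in the untreated cultures and at 174.5, 102.2, 313.3 and 302.3 CPM in treated cultures, in the order of their numbers. Its log2 change was -0.52 (SE 0.16, edgeR adjusted p = 0.0246), with each pair lower and the groups overlapping. MAD2L1, which in its closed form sequesters CDC20, had a change of close size that did not pass (-0.44, adjusted p = 0.0636), while DESeq2 with the replicate number called it (adjusted p = 0.0212). BUB1B, BUB3 and BUB1, which bind kinetochores or CDC20 in the same pathway, had log2 changes of -0.25, -0.20 and -0.06 and did not pass.

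BIRC5 (ENSG00000089685, chromosome 17, 78214186 to 78225636), survivin, a subunit of the chromosomal passenger complex, was the 1 member whose treated libraries all lay below all controls. It was at 162.8, 122.2, 182.6 and 162.5 CPM in the untreated cultures and at 116.2, 100.8, 117.1 and 122.1 CPM in treated cultures, so the groups are separated by under 1 CPM at their nearest. Over all tested genes 2.60% were so placed, and 1 of 45 members is 2.22%. No member had all treated libraries above all controls, as 2.42% of all genes had. The log2 change was -0.45 (SE 0.14, edgeR adjusted p = 0.0318). The other 3 subunits of that complex did not pass. AURKB, its kinase, had a log2 change of -0.11 (SE 0.15), CDCA8, borealin, one of -0.08 (SE 0.14) and INCENP, the scaffold, one of 0.03 (SE 0.14). In the authors' deposited table BIRC5 had a log2 change of -0.47 with p = 0.0188 and an adjusted p of 0.445, the smallest of any member there.

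Among 6 centromere and kinetochore genes 2 fell (33.3%, against 6.97% of all tested genes), a share that rests on few genes. Both are subunits of the NDC80 complex, the coupler of kinetochores to microtubules. SPC25 (ENSG00000152253, chromosome 2, 168834132 to 168913371) was at 97.7, 64.8, 170.8 and 125.2 CPM in the untreated cultures and at 72.4, 48.3, 93.2 and 95.7 CPM in treated cultures (log2 change -0.53, SE 0.14, edgeR adjusted p = 0.0133). NUF2 (ENSG00000143228, chromosome 1, 163266576 to 163355764) was at 222.3, 176.5, 440.7 and 322.2 CPM and at 188.7, 113.5, 283.1 and 268.0 CPM (log2 change -0.44, SE 0.15, edgeR adjusted p = 0.0485). Both were lower in every pair with overlapping groups. Neither passed with the correction for length (edgeR adjusted p = 0.0534 for SPC25 and 0.0707 for NUF2). NUF2 also did not pass with any 1 replicate number left out. NDC80 itself had a log2 change of -0.34 and did not pass (edgeR adjusted p = 0.171). CENPA, the centromeric histone, and the kinesin CENPE had log2 changes of -0.27 and -0.30, and CENPF, a large kinetochore protein, 0.11, none past the threshold.

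Of 7 spindle motors and microtubule-binding proteins 1 fell (14.3%, against 6.97% of all tested genes). DLGAP5 (ENSG00000126787, chromosome 14, 55148112 to 55191678), also known as HURP, which stabilises kinetochore microtubules, was at 155.4, 122.6, 649.6 and 507.6 CPM in the untreated cultures and at 147.1, 90.5, 342.2 and 339.0 CPM in treated cultures. The change was -0.51 on the log2 scale (SE 0.16, edgeR adjusted p = 0.0335). It was -0.23 in replicates 1 and 2, where the levels were lower, and -0.76 in replicates 3 and 4. HMMR, a spindle assembly factor, did not pass at -0.46 (edgeR adjusted p = 0.0843), and the motors KIF4A, KIF2C and KIF11 had changes of -0.26, -0.18 and -0.13. ASPM, a spindle pole protein, had a change of -0.14 and NUSAP1 one of 0.20, and neither passed.

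Neither the 4 genes of PLK1, AURKA and AURKA's partners nor the 6 genes of the central spindle and cytokinesis held a member that passed. TPX2, which activates AURKA on microtubules, was at 203.1, 209.4, 189.1 and 232.5 CPM in the untreated cultures and at 209.1, 306.4, 195.3 and 187.2 CPM in treated cultures (log2 change 0.08, SE 0.16, edgeR adjusted p = 0.788). Treated 2 was the highest library and treated 4 the lowest. PLK1, a kinase acting from mitotic entry to exit, had a log2 change of -0.03 (SE 0.14), AURKA, a centrosomal kinase, -0.26 and TACC3, which AURKA phosphorylates, -0.24. ANLN, anillin, a scaffold of the contractile ring, was at 357.3, 343.8, 2039 and 1743 CPM in the untreated cultures and at 401.5, 290.6, 998.6 and 957.4 CPM in treated cultures (log2 change -0.49, SE 0.19, edgeR adjusted p = 0.0806). It stood highest in controls 3 and 4, with treated 3 and 4 between those and replicates 1 and 2. ECT2 and KIF23, which position and build the division plane, had log2 changes of -0.20 and -0.24, the kinesins KIF20A and KIF14 -0.14 and -0.07, and PRC1 0.07.

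MKI67 (ENSG00000148773, chromosome 10, 128096659 to 128126385), the Ki-67 antigen that coats mitotic chromosomes and marks cycling cells, went the other way. It was at 139.3, 210.4, 117.4 and 184.1 CPM in the untreated cultures and at 194.8, 373.9, 212.8 and 167.6 CPM in treated cultures. It was higher in pairs 1, 2 and 3 and lower in pair 4, and treated 2 was the highest library. The log2 change was 0.51 (SE 0.17, edgeR adjusted p = 0.0366), but the gene did not pass without replicate 1, 2 or 3. TOP2A, topoisomerase II alpha, which untangles sister DNA and is likewise used as a proliferation marker, had a log2 change of -0.15 (SE 0.19, edgeR adjusted p = 0.644).

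The members' levels also differed between replicates 1 and 2 and replicates 3 and 4. The summed level of the 45 genes ran 7295, 6680, 18489 and 15521 CPM over untreated cultures 1 to 4, and 7261, 6437, 11538 and 11318 CPM over treated cultures 1 to 4. Treated libraries thus lay close to their controls in replicates 1 and 2 and below them in replicates 3 and 4. In controls the mean of replicates 3 and 4 was at a median of 2.07 times that of replicates 1 and 2 over the members, against 0.956 times over all tested genes. In 18 members (40%) both controls 3 and 4 were at least 2-fold above both controls 1 and 2, as were 4.86% of all tested genes. The ratio ran from 0.588 for CDC25B to 5.39 for ANLN. It was 4.39 for ASPM, 4.16 for DLGAP5 and 4.01 for TOP2A, but 0.862 for MKI67, 0.788 for FOXM1, 0.777 for AURKB and 0.940 for CDCA8. Members were thus not all higher in replicates 3 and 4. The genes in these last 2 sentences were chosen after their values were seen.

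**Figure D3:**
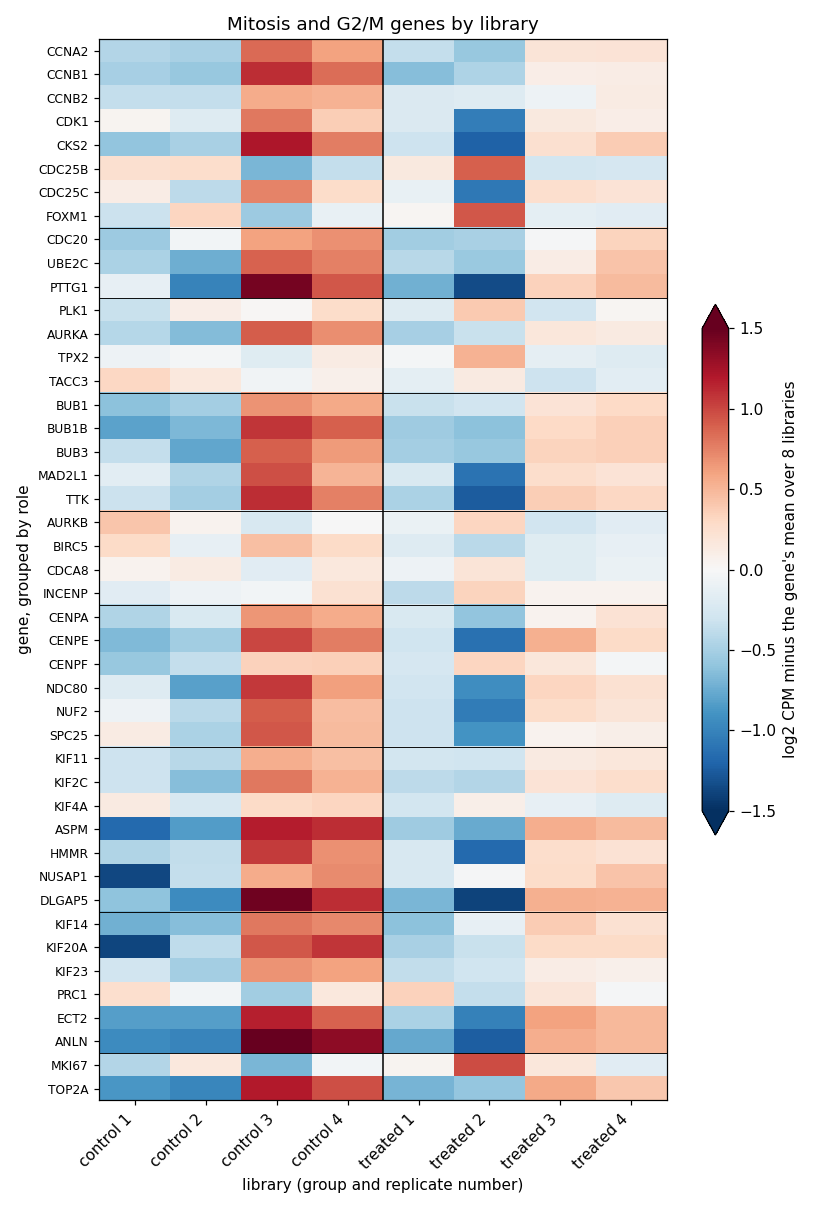
Log2 CPM of each member (rows, grouped by role) minus its own mean over the 8 libraries (columns), with red above and blue below that mean and a line between controls and treated. Controls 3 and 4 are red for most members, treated 3 and 4 are paler, and CDC25B, FOXM1 and MKI67 have their darkest red in treated 2.

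Pair by pair, the members' median log2 change was 0.03, 0.07, -0.61 and -0.38 in replicates 1 to 4, and that of all tested genes was between -0.01 and 0 in each. In both pairs 3 and 4, 39 of 45 members were lower (86.7%), against 35.6% of all tested genes, while 11 (24.4%) were lower in both pairs 1 and 2, against 33.8%, and 15 (33.3%) were higher in both, against 33.0%. Lower in all 4 pairs were 11 members (24.4%), against 17.1% of all genes, and higher in all 4 was none. A pattern of higher in pairs 1 and 2 and lower in pairs 3 and 4 was seen in 12 members (26.7%) and in 6.71% of all genes. A difference of the change between replicates 3 and 4 and replicates 1 and 2, tested in edgeR as an interaction over all genes, passed for 0 members and for 0.230% of all genes. The division was taken from these expression values, and the levels of controls 3 and 4 described above enter the changes. Members share the same 8 libraries, so counts of them are not counts of independent results. Of the members 14 (31.1%) had an unadjusted p below 0.05, all with the lower change in replicates 3 and 4. Over all genes it was 3.72% in that direction and 8.40% in either. The largest such differences were of KIF20A (-1.10, SE 0.36), ASPM (-0.99, SE 0.29), ANLN (-0.93, SE 0.34) and NUSAP1 (-0.93, SE 0.38), with edgeR adjusted p between 0.372 and 0.561. DESeq2 called 1 member, ASPM, in the same comparison (adjusted p = 0.0479). The share of all genes that DESeq2 called there is not given here, so this 1 call cannot be set against it. With a term for the replicate sets in place of the replicate number, 0 members passed for treatment, with adjusted p of 0.0678 for BIRC5, 0.0697 for SPC25 and 0.0743 for PTTG1, and 6.79% of all genes passed.

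Changes of the members also went with gene length, given here as summed exon length. Among all tested genes the median log2 change ran from -0.19 in the shortest 10% to 0.18 in the longest 10%, and MKI67, at 12807 bases, is in that last class. Across the 45 members, which share libraries and are not replicates, the Spearman correlation of change and length was 0.371. The median member changed by -0.22 relative to the median of all genes in its own length class. Relative to its class MKI67 was at 0.33 and PTTG1 at -0.46. With a correction for length in each library 6 members fell and none rose: MAD2L1 was called, while SPC25 (edgeR adjusted p = 0.0534), NUF2 (0.0707) and MKI67 (0.156) did not pass, and 6.71% of all genes fell.

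**Figure D4:**
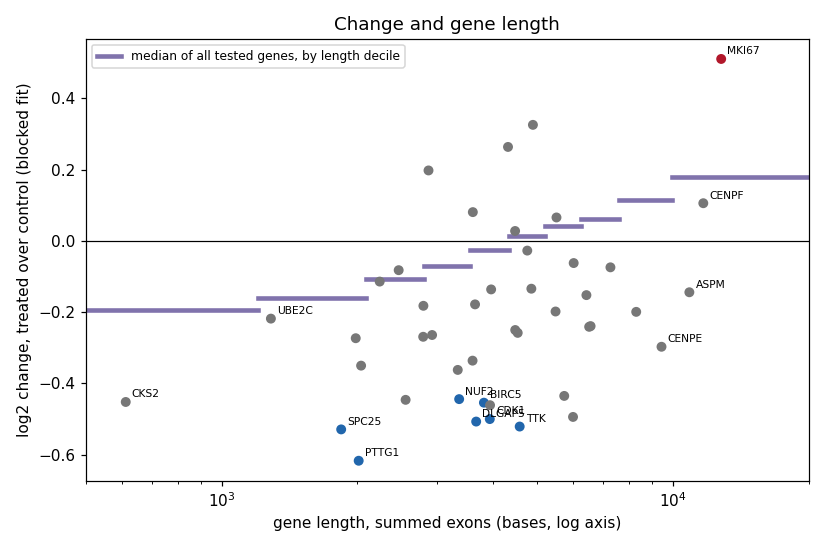
Log2 change with the replicate number in the fit (y axis) against gene length on a log axis (x axis) for the 45 members, coloured blue where they fell, red where they rose and grey where they did not pass; purple bars are medians of all tested genes in 10 classes of length. The bars climb from -0.19 to 0.18, most members lie under their bar, and MKI67 lies above its own.

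Per length, the most abundant member was CKS2 with a control mean of 723.0 FPKM (fragments per kilobase, scaled for depth), followed by PTTG1 (299.3), HMMR (209.4), ANLN (186.8), CDK1 (171.1) and TOP2A (169.1). MKI67 was at 12.5 FPKM in controls and 18.2 FPKM in treated cultures. At the low end PRC1, a central spindle bundler, was at 0.366 FPKM and NUSAP1, a microtubule binder, at 3.91 FPKM in controls. In GENCODE release 29, 58.4% of PRC1's exon bases and 62.2% of NUSAP1's lie in exons of another gene, mostly the same-strand genes AC068831.7 and AC087721.2. For the other 43 members that share was under 20%. No source used here states how reads in such bases were assigned, so the levels of PRC1 and NUSAP1 are uncertain.

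Of a further list of 96 genes of mitosis outside the members, 16 fell (16.7%, against 6.97% of all tested genes), 0 rose and 80 did not pass. Their median log2 change was -0.17, with 75 below zero and 21 above. Their summed level was 11050.3, 9554.3, 17724.3 and 15239.8 CPM in untreated cultures 1 to 4. In treated cultures 1 to 4 it was 10304.5, 9216.5, 13352.9 and 12950.6 CPM. With the term for the replicate sets 5 of the 96 fell, and 3.07% of all genes did. CENPW, a centromere protein, went from 84.6 ± 35.4 to 51.6 ± 19.5 CPM (SD, n = 4; log2 change -0.71, edgeR adjusted p = 0.00213), SKA2, of the SKA complex on kinetochore microtubules, had a log2 change of -0.63 and DEPDC1B one of -0.62. Of 34 genes of the MCM helicase and replication origins 1 rose (TICRR, log2 change 0.47) and 1 fell (RECQL4, -0.57), with a median of 0.00. Each is 2.94%, against 7.51% and 6.97% of all tested genes. The summed level of the 34 was 4935, 4526, 7601 and 6460 CPM in untreated cultures 1 to 4. In treated cultures 1 to 4 it was 4697, 4525, 5896 and 5803 CPM. The sums of both lists, like that of the members, were thus highest in controls 3 and 4, with treated 3 and 4 lower. A sum weighs abundant genes most. In controls the median ratio of replicates 3 and 4 to 1 and 2 was 1.5 for the 96 and 1.06 for the 34. It was 2.07 for the members and 0.956 for all tested genes. Median log2 changes in pairs 3 and 4 were -0.38 and -0.25 for the 96, and -0.08 and -0.02 for the 34. Whether the lists differ was not tested.

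Of 19 regulators of mitotic gene transcription 4 rose (21.1%, against 7.51% of all tested genes) and 0 fell, with a median log2 change of 0.17. With the term for the replicate sets 2 of them rose. The coactivators EP300 and CREBBP rose by 0.79 and 0.77 on the log2 scale, and the repressor E2F7 by 0.64. EP300 and CREBBP are long (12500 and 15492 bases), and both also passed with the correction for length (0.62 and 0.57). Of 8 CDK inhibitors and relatives 1 rose (12.5%, against 7.51% of all tested genes) and 2 fell (25%, against 6.97%). The list is short, so these shares are rough. CDKN1A, p21, which binds cyclin-CDK complexes, was at 105.3, 128.2, 65.1 and 59.0 CPM in the untreated cultures and at 139.0, 142.0, 126.3 and 116.0 CPM in treated cultures. It was higher in every pair (log2 change 0.62, SE 0.16, edgeR adjusted p = 0.00865). The change was 0.27 from replicates 1 and 2 and 0.96 from replicates 3 and 4, a difference that did not pass (edgeR adjusted p = 0.512). CDKN2C, p18, fell by 0.88 on the log2 scale and CDKN3, a phosphatase of CDKs, by 0.49.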

How the data were processed

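Per the labels, RNA of 8 SV-HUC1 cultures was sequenced from NEBNext libraries. Alignment and counting tools named in the submitters' processing notes are HISAT2 2.0.5 and featureCounts 1.5.0-p3, with DESeq2 1.20.0 and the build GRCh38.p13; no source used here states the strand setting. The authors deposited raw counts for each gene. Their deposited FPKM values follow size factors rather than total counts, as the values show. The authors' deposited table gives a signal, the mean size-factor-normalised count per group, with a log2 fold change, a p-value and an adjusted p-value.

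Counts were tested here with edgeR 4.0.16 under R 4.3.3 (TMM, filterByExpr, quasi-likelihood), over all genes passing the filter, after tests on simulated data. The simulated data had the levels of each replicate number built in, with spread taken from the fit with that number. They thus cannot support the calls of that fit. Alternatives were DESeq2 1.42.0, other scalings, no filter, a lowess correction for gene length and leaving out replicates. The design fitted the group alone. The replicate number was then added as a block, because same-numbered libraries deviated together (correlations 0.532, 0.678, 0.590 and 0.503, minimum set at 0.1). Differently numbered libraries within replicates 1 and 2 or 3 and 4 correlated at 0.443 to 0.652, so the numbers are not separated from that division. No 2 libraries of a group were alike to within counting error (chi-square over its degrees of freedom ran from 9.98 to 227). The submitters describe independent experiments on 1 line. Without the replicate number, p-values measure the spread between libraries of a group. With it, they measure only the spread left once the level of each replicate number is removed. The median SE of the members' log2 changes was 0.336 without it and 0.159 with it.

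Members and lists were chosen with earlier results of these data known. Per-library values are printed for members past the threshold in the blocked fit or with separated groups, and for the member with the highest mean CPM over all 8 libraries in each role group without one. From other lists up to 3 genes in each direction are named by smallest adjusted p, with CDKN1A in any case. Other members are named to account for all 45. Pseudogene copies of members had at most 18 counts in any library.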

Additional observations from a re-analysis of the deposited data

Results flagged for a closer look

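In each group of 4, every member was checked for a library far from the other 3 by Dixon's ratio (90 groups, of which chance flags about 1 in 20). One stood out. FOXM1 was at 65.4 CPM in treated 2 and at 30.5 to 35.1 CPM in the other treated libraries.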

How the results depend on the processing

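Without the replicate number 0 members were called in either direction, and with the replicate block 1 was called higher and 7 lower. All other edgeR and DESeq2 settings run without the block also gave 0 and 0, leaving out each library included, with a median log2 change of -0.507 (without control 2) to -0.081 (without control 3) against -0.332. Starting from the block, the term for replicate sets gave 0 and 0, total counts left 2 lower of 45 (PTTG1 and SPC25) against 3.07% of all genes, no filter on low counts left 4 lower, and the length correction left 0 higher. Leaving out 1 replicate number with the block gave 0 to 1 higher and 0 to 7 lower: 0 and 7 without replicate 1, 0 and 4 without replicate 2, 0 and 0 without replicate 3, 1 and 2 without replicate 4. The cause was not tested. Shares of all genes called in these smaller fits and without the filter are not given here, so a loss particular to the members cannot be told. PTTG1 and SPC25 passed in each of these 4 except without replicate 3. DESeq2 with the block called 10 members lower, among them all 7, and 1 higher, against 8.69% of all genes lower. DESeq2 size factors with the block kept all 8 calls. For the difference between replicate sets, DESeq2 called 1 member lower, and leaving out 1 library gave 0 to 1 lower (1 without control 2), with 0 higher. No member that passed changed sign in any setting. With total counts and the block, the median over all genes was 0.10 and that over members -0.13 (log2). PRC1 (26 to 78 counts per library) and NUSAP1 (95 to 369) had the fewest counts of the members, with SE of 0.27 and 0.19 in the blocked fit. The parts of depth and of spread between libraries in the errors were not tested.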
